A study of Homo sapiens with 3 samples.

Results

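This account concerns 66 genes that encode collagens, laminin chains and other proteins of the basement membrane and the interstitial matrix. They are all the genes among the 18345 with a value whose symbol is that of a collagen chain (COL, a number, A, a number) or a laminin chain (LAMA, LAMB or LAMC and a number), together with NID1, NID2, HSPG2, AGRN, FN1, SPARC, FBLN1, FBLN2, FBN1 and FBN2. By their known assembly, 24 were grouped as basement membrane genes, 11 as fibrillar collagens, 25 as other collagens and 6 as other glycoproteins. RNA-seq was done on cells made from H1, a human embryonic stem cell line, and sorted as CD31+CD34+ with no surface CD105 (CD105neg), a low level (CD105low) or a high level (CD105high). CD105, or endoglin, is a co-receptor of endothelial cells that takes part in TGF-beta and BMP signalling. All 3 populations had the same history: Custom mTeSR1 medium with 40 ng/ml activinA plus 50 ng/ml BMP4 for 2 days, then 40 ng/ml VEGF plus 50 ng/ml bFGF for 3 days. The cells, called HEPs in the labels, carry day 4 as their time. Each population had 1 library from 1 cell line. No difference below therefore has a replicate check, a standard error or a p-value: libraries are compared, not conditions.

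The basement membrane is a thin sheet of matrix on which endothelium and epithelium rest. Laminins, each built of an alpha, a beta and a gamma chain, and collagen IV form its networks, which nidogens and the heparan sulphate proteoglycans perlecan (HSPG2) and agrin (AGRN) connect. Fibrillar collagens instead form the cross-striated fibrils of interstitial tissue and are typical products of fibroblasts and mural cells. In growing vessels the endothelial cells themselves make collagen IV, perlecan and laminins.

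The values, treated as FPKM, are levels per transcript length, so levels of different genes can be set side by side. The 66 genes together took 0.636% of the summed level of all genes in CD105neg, 0.718% in CD105low and 0.795% in CD105high. Of the 66, 44 reached 1 FPKM in at least 1 library and are called measured, as were 11343 genes in all. ENG, the gene of CD105, stood at 2.12 FPKM (CD105neg), 8.56 FPKM (CD105low) and 13.8 FPKM (CD105high), which follows the sort. The column of values of the CD105neg library is headed as CD105 positive in the deposited table; its group is taken from the sample title, and its ENG level was the lowest of the 3. Endothelial genes were present throughout, with the cadherin gene CDH5 at 48.01, 79.6 and 94.1 FPKM in the CD105neg, CD105low and CD105high libraries. The pan-leukocyte gene PTPRC was at or below 0.01 FPKM, but 6 of 8 blood markers looked at reached 1 FPKM in at least 1 library. Among them HBE1 stood at 10.9, 2.50 and 1.09 FPKM and ITGA2B at 7.84, 4.87 and 2.28 FPKM in the same order of libraries. A log2 fold change is here that of the value plus 1, which understates low genes, and a gene is called higher or lower when the value plus 1 differs at least 1.5-fold. A value in brackets after the levels of a gene is its log2 fold change for CD105high against CD105neg unless another pair is named. Over all measured genes the median log2 fold change was -0.09 for CD105high against CD105neg. It was 0.02 for CD105low against CD105neg, and -0.10 between CD105high and CD105low, as the first minus the second. Scaling each library to the same sum is an upward shift of 0.12, 0.02 and 0.10 in those pairs, before the 1 is added. A gene's level in such sorted populations cannot tell fewer cells that express it from less RNA per cell.

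COL4A1, COL4A2 and COL15A1 were all at their highest in CD105high and their lowest in CD105neg. Both the basement membrane and the fibrillar group held genes that were higher and genes that were lower. In CD105high against CD105neg, 5 of the 18 measured basement membrane genes were higher (27.8%), where 5.65% of all measured genes were. They were COL15A1, COL4A1, HSPG2, COL4A2 and LAMA4. Of these, LAMA4 reached 1 FPKM in CD105high alone, so it entered the count through the library where it was higher. A further 3 of the 18 were lower (16.7%), where 6.88% of all measured genes were: COL18A1, LAMA5 and LAMA1. With 5 added to each value in place of 1, 4 were higher and 2 lower. LAMA4 (0.24) and LAMA1 (-0.50) then fell short of 1.5-fold. With 0.1 added, 6 were higher and 3 lower. Among the 8 measured fibrillar collagens, 1 was higher, COL5A2, and 2 were lower, COL1A1 and COL3A1. The median log2 fold change was 0.13 for the basement membrane genes and -0.38 for the fibrillar collagens, a difference of medians of 0.51, beside -0.09 over all measured genes. Summed over the group, basement membrane genes stood at 589 FPKM (CD105neg), 690.5 FPKM (CD105low) and 861 FPKM (CD105high). Summed fibrillar collagens stood at 427, 445 and 424 FPKM in the same libraries, which differ by less than the summed basement membrane level does. That fibrillar sum holds COL5A2, which was higher in CD105high, together with genes that were lower there.

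**Figure D1:**
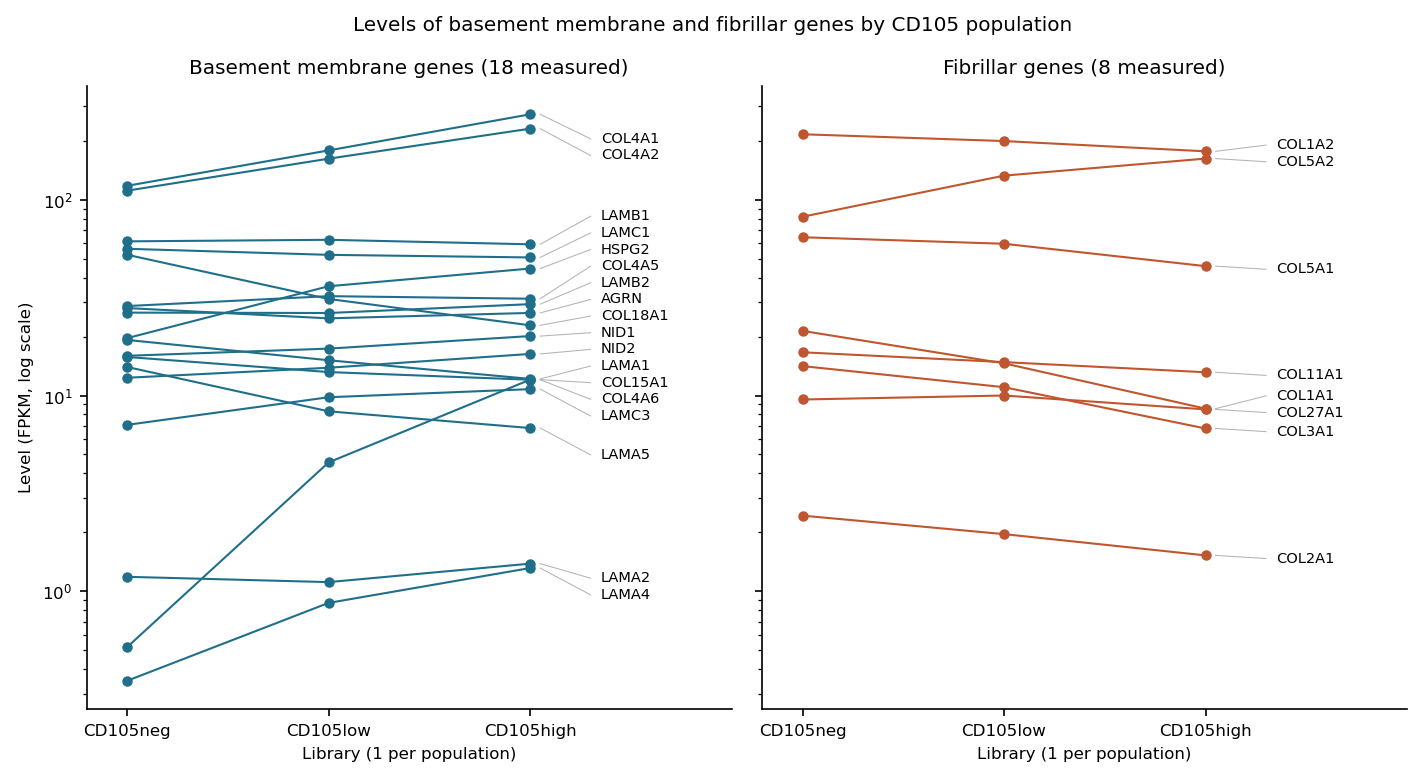
Level in FPKM (log axis) of the measured basement membrane genes (left, 18 genes) and fibrillar collagens (right, 8 genes) in the CD105neg, CD105low and CD105high libraries, 1 point per library, with lines joining the points of a gene. COL15A1 covers the widest range on the left, with 12.05 FPKM in CD105high and 0.52 FPKM in CD105neg, and COL5A2 is the fibrillar gene that runs upward across the 3 libraries.

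Collagen IV, the network collagen found in every basement membrane, made up most of the summed difference. COL4A1 (ENSG00000187498.14) stood at 118 FPKM (CD105neg), 179 FPKM (CD105low) and 273 FPKM (CD105high), and COL4A2 (ENSG00000134871.17), its partner chain, at 111 FPKM (CD105neg), 162 FPKM (CD105low) and 231 FPKM (CD105high). Each step of the sort brought a higher level of both. The log2 fold change of CD105high against CD105neg was 1.21 for COL4A1 and 1.05 for COL4A2. Together the 2 genes took 12.4% of the summed level of the 66 genes (CD105neg), 16.7% (CD105low) and 23.8% (CD105high). In CD105high COL4A1 was the most abundant of the 66, a place that FN1 held in the other libraries. The ratio of COL4A1 to COL4A2 was 1.06 in CD105neg, 1.10 in CD105low and 1.18 in CD105high.

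The other collagen IV genes did not share that pattern. COL4A5, which encodes a chain used in renal and some other basement membranes, stood at 28.6 FPKM (CD105neg), 32.2 FPKM (CD105low) and 31.2 FPKM (CD105high), a log2 fold change of 0.12 for CD105high against CD105neg. COL4A6, its partner gene, stood at 15.7 FPKM (CD105neg), 13.2 FPKM (CD105low) and 12.04 FPKM (CD105high) (-0.36). COL4A3 and COL4A4, which encode the chains of the mature glomerular basement membrane, did not exceed 0.042 FPKM in any library. COL4A1 and COL4A2 accounted for 83.8% of the summed collagen IV level in CD105neg, 88.2% in CD105low and 92.1% in CD105high.

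Collagen IV genes lie in head-to-head pairs whose starts are close together, and here 1 pair was abundant, 1 was less abundant and 1 was nearly silent. In RefSeq, on build GRCh38.p14, the start of COL4A2 lies 127 bases from that of COL4A1 on the opposite strand of chromosome 13, so that 226 of the 300 bases of each promoter window are the reverse complement of the other. COL4A3 and COL4A4 start 419 bases apart on chromosome 2, and COL4A5 starts 380 bases from the nearer of the 2 listed starts of COL4A6 on chromosome X. The window of COL4A2, which includes the region shared with COL4A1, is printed as the stretch between the pair that was higher together; that of COL4A5 is printed as the pair that was not; those of COL15A1 and HSPG2 are the other basement membrane genes that were at least 1.5-fold higher with a window in the table and at least 10 FPKM in CD105high. Each runs from 250 bases before the start to 50 bases from it, 5′ to 3′ on the strand of the named gene, and capitals mark matches on either strand to CCAAT, to the GC box GGGCGG or to TATAAA, some of which overlap.
COL4A2, chr13:110307034-110307333, plus strand: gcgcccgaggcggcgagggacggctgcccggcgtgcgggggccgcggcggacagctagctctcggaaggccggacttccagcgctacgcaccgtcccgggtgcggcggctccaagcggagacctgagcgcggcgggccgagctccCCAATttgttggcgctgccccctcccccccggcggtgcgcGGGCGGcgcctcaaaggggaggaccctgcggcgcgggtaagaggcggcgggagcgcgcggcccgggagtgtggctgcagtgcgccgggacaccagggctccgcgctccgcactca
COL4A5, chrX:108439588-108439887, plus strand: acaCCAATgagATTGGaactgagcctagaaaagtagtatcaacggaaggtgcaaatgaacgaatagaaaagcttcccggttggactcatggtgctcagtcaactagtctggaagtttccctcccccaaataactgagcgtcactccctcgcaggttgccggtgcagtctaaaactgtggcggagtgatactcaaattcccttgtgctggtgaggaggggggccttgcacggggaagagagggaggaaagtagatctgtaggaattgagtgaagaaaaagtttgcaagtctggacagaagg
COL15A1, chr9:98943657-98943956, plus strand: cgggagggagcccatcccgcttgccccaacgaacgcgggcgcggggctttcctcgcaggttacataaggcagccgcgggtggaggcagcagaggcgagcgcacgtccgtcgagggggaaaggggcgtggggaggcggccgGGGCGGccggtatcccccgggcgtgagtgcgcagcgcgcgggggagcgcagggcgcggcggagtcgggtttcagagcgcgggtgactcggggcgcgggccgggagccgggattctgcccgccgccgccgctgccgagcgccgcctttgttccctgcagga
HSPG2, chr1:21937261-21937560, minus strand: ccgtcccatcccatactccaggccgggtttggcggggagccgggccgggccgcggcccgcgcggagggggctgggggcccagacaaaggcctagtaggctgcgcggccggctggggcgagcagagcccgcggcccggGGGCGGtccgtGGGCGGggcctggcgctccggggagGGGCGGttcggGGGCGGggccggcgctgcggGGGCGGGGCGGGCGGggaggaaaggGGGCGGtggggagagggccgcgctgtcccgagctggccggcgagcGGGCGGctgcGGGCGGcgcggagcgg

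The 4 windows differ in base composition. G and C make up 77.7% of the COL4A2 window, 49.3% of that of COL4A5, 76.0% of that of COL15A1 and 83.3% of that of HSPG2, beside a median of 58.7% over the 35116 windows of the RefSeq table. CCAAT occurs 1 time in the COL4A2 window and 2 times in that of COL4A5, and 34.6% of all windows hold it. GGGCGG occurs 1 time in the COL4A2 window, 1 time in that of COL15A1 and 10 times in that of HSPG2, and 45.0% of all windows hold it. TATAAA is in none of the 4 windows and in 11.5% of all windows. A match is a description of the letters and says nothing about binding. Of the 66 genes, 50 have a window in the table.

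The multiplexins COL15A1 and COL18A1, collagens of the basement membrane zone with related domains, ran in opposite directions. COL15A1 (ENSG00000204291.10) stood at 0.52 FPKM (CD105neg), 4.56 FPKM (CD105low) and 12.05 FPKM (CD105high). Its log2 fold change of 3.10 for CD105high against CD105neg was the highest of the 44 measured genes and the seventh highest of all 11343. The CD105neg level of COL15A1 was below 1 FPKM, so the size of that change depends on the amount added to each value. It was 4.295 with 0.1 added and 1.63 with 5. COL18A1 (ENSG00000182871.14), whose protein carries endostatin at its end, stood at 52.3 FPKM (CD105neg), 31.1 FPKM (CD105low) and 22.8 FPKM (CD105high), a log2 fold change of -1.16. The ratio of COL15A1 to COL18A1 was 0.0099 in CD105neg, 0.15 in CD105low and 0.53 in CD105high, so COL18A1 remained the higher of the pair in each library. In GENCODE, 16.4% of the exonic bases of COL18A1 lie opposite exons of SLC19A1, a folate carrier gene, and the libraries do not mark strand. SLC19A1 itself stood at 4.44 FPKM (CD105neg), 4.31 FPKM (CD105low) and 4.36 FPKM (CD105high).

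Laminin genes differed mainly among the alpha chains, which give a laminin its binding to cells. LAMA5 (ENSG00000130702.15), one of the alpha chains of endothelial basement membranes, stood at 13.98 FPKM (CD105neg), 8.302 FPKM (CD105low) and 6.82 FPKM (CD105high). LAMA1 (ENSG00000101680.14), the alpha chain of early embryonic basement membranes, stood at 19.2 FPKM (CD105neg), 15.1 FPKM (CD105low) and 12.2 FPKM (CD105high). Both were lower in CD105high than in CD105neg, with log2 fold changes of -0.94 and -0.62; that of LAMA1 was -0.52 after centring on the median gene, which is short of 1.5-fold. LAMA4 (ENSG00000112769.18), the other alpha chain of endothelial basement membranes, stood at 0.35 FPKM (CD105neg), 0.87 FPKM (CD105low) and 1.31 FPKM (CD105high) (0.78), higher at each step although low throughout. For LAMA1, 11.1% of the exonic bases lie opposite exons of other genes. For LAMA5 the share is 2.53%, and ADRM1, a gene on that other strand, stood at 61.4 FPKM (CD105neg), 63.2 FPKM (CD105low) and 60.2 FPKM (CD105high). LAMA2, the alpha chain best known from muscle, stood at 1.19, 1.11 and 1.38 FPKM in the CD105neg, CD105low and CD105high libraries.

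As a share of the summed alpha chain level, LAMA4 took 0.999% in CD105neg, 3.41% in CD105low and 6.04% in CD105high. LAMA5 took 39.98%, 32.5% and 31.4% in the same order, and LAMA1 54.97%, 59.2% and 55.9%. The summed alpha chains stood at 34.97 FPKM (CD105neg), 25.6 FPKM (CD105low) and 21.8 FPKM (CD105high). The summed beta chains stood at 88.04, 88.9 and 88.6 FPKM in the same order, so the alpha sum was the lower of the pair in each library and the one that differed more between them. LAMB1 and LAMC1, the beta and gamma chains of most early laminins, stood at 61.3, 62.4 and 59.2 FPKM in the CD105neg, CD105low and CD105high libraries and at 56.1, 52.3 and 50.7 FPKM in the CD105neg, CD105low and CD105high libraries. LAMB2, the beta chain of mature vessel and muscle laminins, stood at 26.5, 26.4 and 29.3 FPKM in the CD105neg, CD105low and CD105high libraries. LAMC3 stood at 7.08 FPKM (CD105neg), 9.798 FPKM (CD105low) and 10.8 FPKM (CD105high), a log2 fold change of 0.54 for CD105high against CD105neg that was short of 1.5-fold as deposited and past it after centring (0.64).

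**Figure D2:**
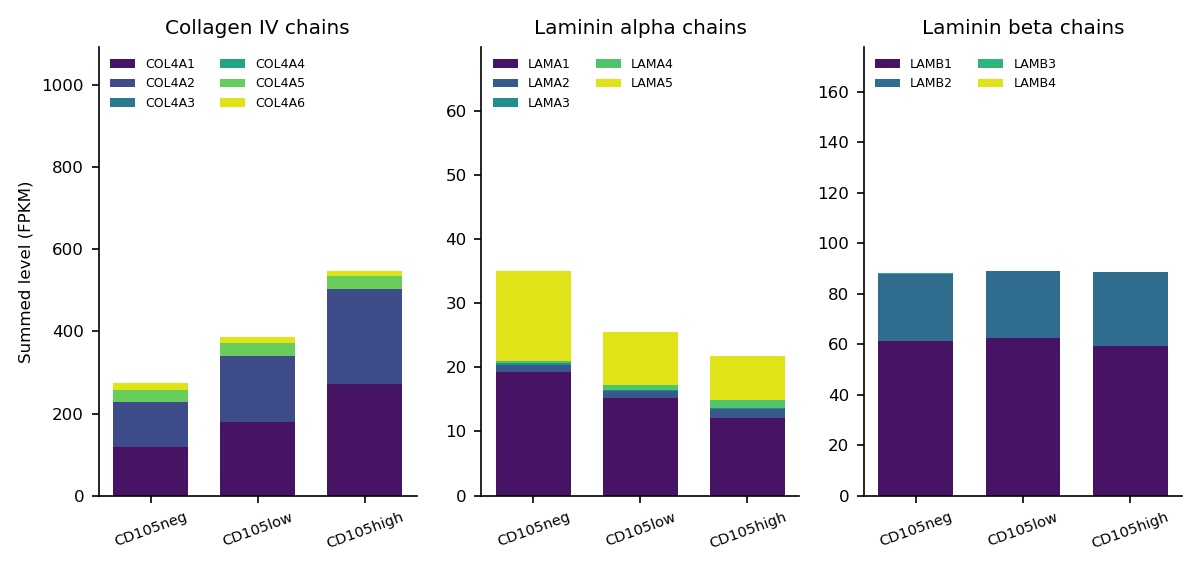
Summed level in FPKM of the collagen IV chains and of the laminin alpha and beta chains in the CD105neg, CD105low and CD105high libraries, 1 library each, with each gene a segment of its bar and a separate axis from 0 for each panel. The collagen IV bar is tallest in CD105high (547 FPKM, against 273 in CD105neg) and the alpha chain bar shortest there (21.8 FPKM, against 34.97 in CD105neg), while the beta bars are nearly level.

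The components that link the networks differed by gene. HSPG2 (ENSG00000142798.17), which encodes perlecan, stood at 19.6 FPKM (CD105neg), 36.1 FPKM (CD105low) and 44.5 FPKM (CD105high), a log2 fold change of 1.14 for CD105high against CD105neg. AGRN, which encodes the other large heparan sulphate proteoglycan, agrin, stood at 27.96 FPKM (CD105neg), 24.8 FPKM (CD105low) and 26.4 FPKM (CD105high); its log2 fold change was -0.08 as deposited and 0.02 after centring. The ratio of HSPG2 to AGRN was 0.70 in CD105neg, 1.46 in CD105low and 1.68 in CD105high. The nidogen genes, whose products bridge laminin and collagen IV, were ordered as the sort without reaching 1.5-fold. NID1 stood at 15.95 FPKM (CD105neg), 17.4 FPKM (CD105low) and 20.1 FPKM (CD105high) and NID2 at 12.3 FPKM (CD105neg), 13.9 FPKM (CD105low) and 16.3 FPKM (CD105high), with log2 fold changes of 0.32 and 0.38. For HSPG2, 11.7% of the exonic bases lie opposite an exon of LDLRAD2, which did not exceed 0.21 FPKM. For NID2, 30.0% lie opposite C14orf166, which ran the other way, at 65.8 FPKM (CD105neg), 58.3 FPKM (CD105low) and 42.1 FPKM (CD105high).

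Among the fibrillar collagens, the components of type V fibrils parted. COL5A2 (ENSG00000204262.11) stood at 81.8 FPKM (CD105neg), 133 FPKM (CD105low) and 162 FPKM (CD105high), a log2 fold change of 0.98 for CD105high against CD105neg. COL5A1 (ENSG00000130635.15), which encodes its partner chain, stood at 64.3 FPKM (CD105neg), 59.6 FPKM (CD105low) and 45.8 FPKM (CD105high) (-0.48). The ratio of COL5A1 to COL5A2 was 0.79 in CD105neg, 0.45 in CD105low and 0.28 in CD105high. Type V collagen regulates the width of type I fibrils, and the remaining chain gene, COL5A3, did not exceed 0.0061 FPKM in any library.

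Of the genes of the bulk interstitial fibril, COL1A1 and COL3A1 were lower in CD105high than in CD105neg, and COL1A2 did not reach 1.5-fold. COL1A1 (ENSG00000108821.13) stood at 21.4 FPKM (CD105neg), 14.6 FPKM (CD105low) and 8.57 FPKM (CD105high) (-1.23), the lowest log2 fold change of the 44 measured genes. COL3A1 (ENSG00000168542.14), the collagen of soft tissue and vessel walls, stood at 14.1 FPKM (CD105neg), 11.03 FPKM (CD105low) and 6.79 FPKM (CD105high) (-0.96). COL1A2, which encodes the second chain of type I collagen, was far more abundant and less different, at 216 FPKM (CD105neg), 199 FPKM (CD105low) and 177 FPKM (CD105high) (-0.29). The ratio of COL1A1 to COL1A2, chains that assemble together in type I collagen, was 0.099 in CD105neg, 0.073 in CD105low and 0.049 in CD105high. COL11A1, the type XI chain of cartilage and early fibrils, stood at 16.6, 14.8 and 13.1 FPKM in the CD105neg, CD105low and CD105high libraries, COL27A1 at 9.54, 9.999 and 8.49 FPKM in the CD105neg, CD105low and CD105high libraries and COL2A1, the main cartilage collagen, at 2.44, 1.96 and 1.53 FPKM in the CD105neg, CD105low and CD105high libraries. For CD105high against CD105neg, COL5A2 had a positive log2 fold change and the other 7 measured fibrillar genes had negative ones, of which 2 passed 1.5-fold. With 0.1 added to each value in place of 1, 3 passed, COL2A1 (-0.64) among them, and with 5 added, 2 did. A negative sign was also the commoner one over all measured genes, whose median was -0.09. The negative sign held for all 7 after centring, and with libraries scaled to a common sum, where COL27A1 lay at -0.04.

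**Figure D3:**
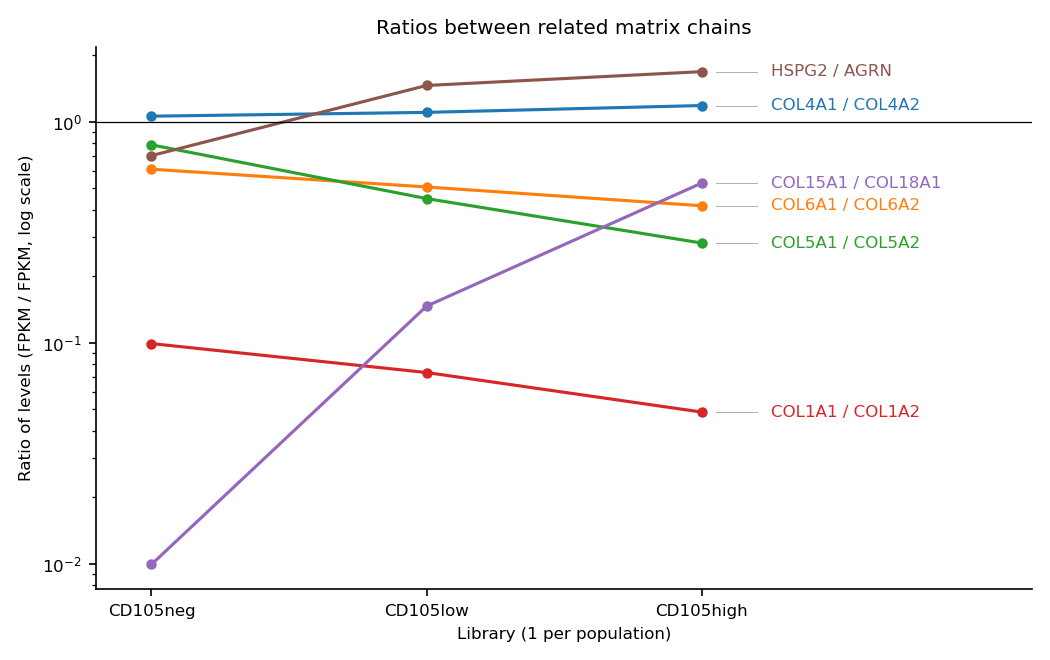
Ratio of the levels of 6 pairs of related chains (log axis, FPKM over FPKM) in the CD105neg, CD105low and CD105high libraries, 1 library each, with a line at 1. COL4A1 over COL4A2 stays between 1.06 and 1.18, COL1A1 over COL1A2 and COL5A1 over COL5A2 are lowest in CD105high, and COL15A1 over COL18A1 covers the widest range, 0.0099 to 0.53.

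Of the 25 other collagen genes, 12 were measured, with a median log2 fold change of -0.39 for CD105high against CD105neg. In that pair 1 was higher (8.33%, where 5.65% of all measured genes were) and 1 was lower (8.33%, where 6.88% were). COL13A1, a transmembrane collagen of cell adhesions, was the 1 that was higher, at 6.31 FPKM (CD105neg), 9.61 FPKM (CD105low) and 10.2 FPKM (CD105high) (0.61). COL19A1, a fibril-associated collagen, was the 1 that was lower, at 2.44 FPKM (CD105neg), 1.46 FPKM (CD105low) and 1.04 FPKM (CD105high) (-0.75). The other fibril-associated genes lay on the same side without reaching 1.5-fold: COL9A2 stood at 28.7, 23.9 and 20.2 FPKM in the CD105neg, CD105low and CD105high libraries and COL9A3 at 8.23, 6.59 and 5.44 FPKM in the CD105neg, CD105low and CD105high libraries, both chains of the cartilage collagen IX, and COL16A1 at 1.45, 0.98 and 0.69 FPKM in the CD105neg, CD105low and CD105high libraries. With a pseudocount of 0.1 in place of 1, COL9A3 and COL16A1 were lower as well, with log2 fold changes of -0.59 and -0.98. With a pseudocount of 5, neither COL13A1 (0.42) nor COL19A1 (-0.30) reached 1.5-fold. The fibril-associated genes summed to 42.4 FPKM (CD105neg), 34.3 FPKM (CD105low) and 28.5 FPKM (CD105high).

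Collagen VI, a beaded microfibril between cells and the interstitial matrix, was present in all 3 libraries mainly through 2 of its chains. COL6A2 stood at 85.3, 100.3 and 101 FPKM in the CD105neg, CD105low and CD105high libraries and COL6A1 at 51.995, 50.8 and 42.2 FPKM in the CD105neg, CD105low and CD105high libraries, with log2 fold changes for CD105high against CD105neg of 0.25 and -0.29. COL6A3, the gene of its large chain, stood at 1.24, 1.53 and 1.83 FPKM in the CD105neg, CD105low and CD105high libraries. Among the transmembrane collagens, COL25A1 stood at 17.99, 19.4 and 16.9 FPKM in the CD105neg, CD105low and CD105high libraries and COL23A1 at 3.06, 2.46 and 1.93 FPKM in the CD105neg, CD105low and CD105high libraries. COL26A1 stood at 6.67, 6.89 and 4.98 FPKM in the CD105neg, CD105low and CD105high libraries, and COL7A1, the anchoring fibril collagen beneath epithelia, at 2.41, 1.8999 and 1.54 FPKM in the CD105neg, CD105low and CD105high libraries. None of these 7 reached 1.5-fold in any pair of libraries with a pseudocount of 1; with 0.1, COL23A1 (-0.64) and COL7A1 (-0.61) were lower in CD105high than in CD105neg.

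Of the 6 other glycoprotein genes, SPARC alone differed by 1.5-fold. As 1 of 6 it made up 16.7% higher in CD105high than in CD105neg, where 5.65% of all measured genes were. SPARC (ENSG00000113140.10), a matricellular protein that binds collagens, collagen IV among them, stood at 111 FPKM (CD105neg), 208 FPKM (CD105low) and 193 FPKM (CD105high), with log2 fold changes of 0.79 for CD105high and 0.90 for CD105low against CD105neg. Its log2 fold change for CD105high against CD105low was -0.11 as deposited and -0.00090 after centring. FN1 (ENSG00000115414.18), which encodes fibronectin, stood at 326 FPKM (CD105neg), 303 FPKM (CD105low) and 249 FPKM (CD105high) (-0.39 for CD105high against CD105neg). The fibrillin genes, for the microfibrils of elastic tissue, stood at 12.4, 11.05 and 13.5 FPKM in the CD105neg, CD105low and CD105high libraries for FBN1 and at 67.2, 72.3 and 68.8 FPKM in the CD105neg, CD105low and CD105high libraries for FBN2. The fibulin genes stood at 29.1, 32.7 and 34.8 FPKM in the CD105neg, CD105low and CD105high libraries for FBLN1 and at 59.2, 53.9 and 57.1 FPKM in the CD105neg, CD105low and CD105high libraries for FBLN2. For these 4 genes the log2 fold change of CD105high against CD105neg lay between -0.05 and 0.25, and that of FBLN2 was 0.05 after centring.

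**Figure D4:**
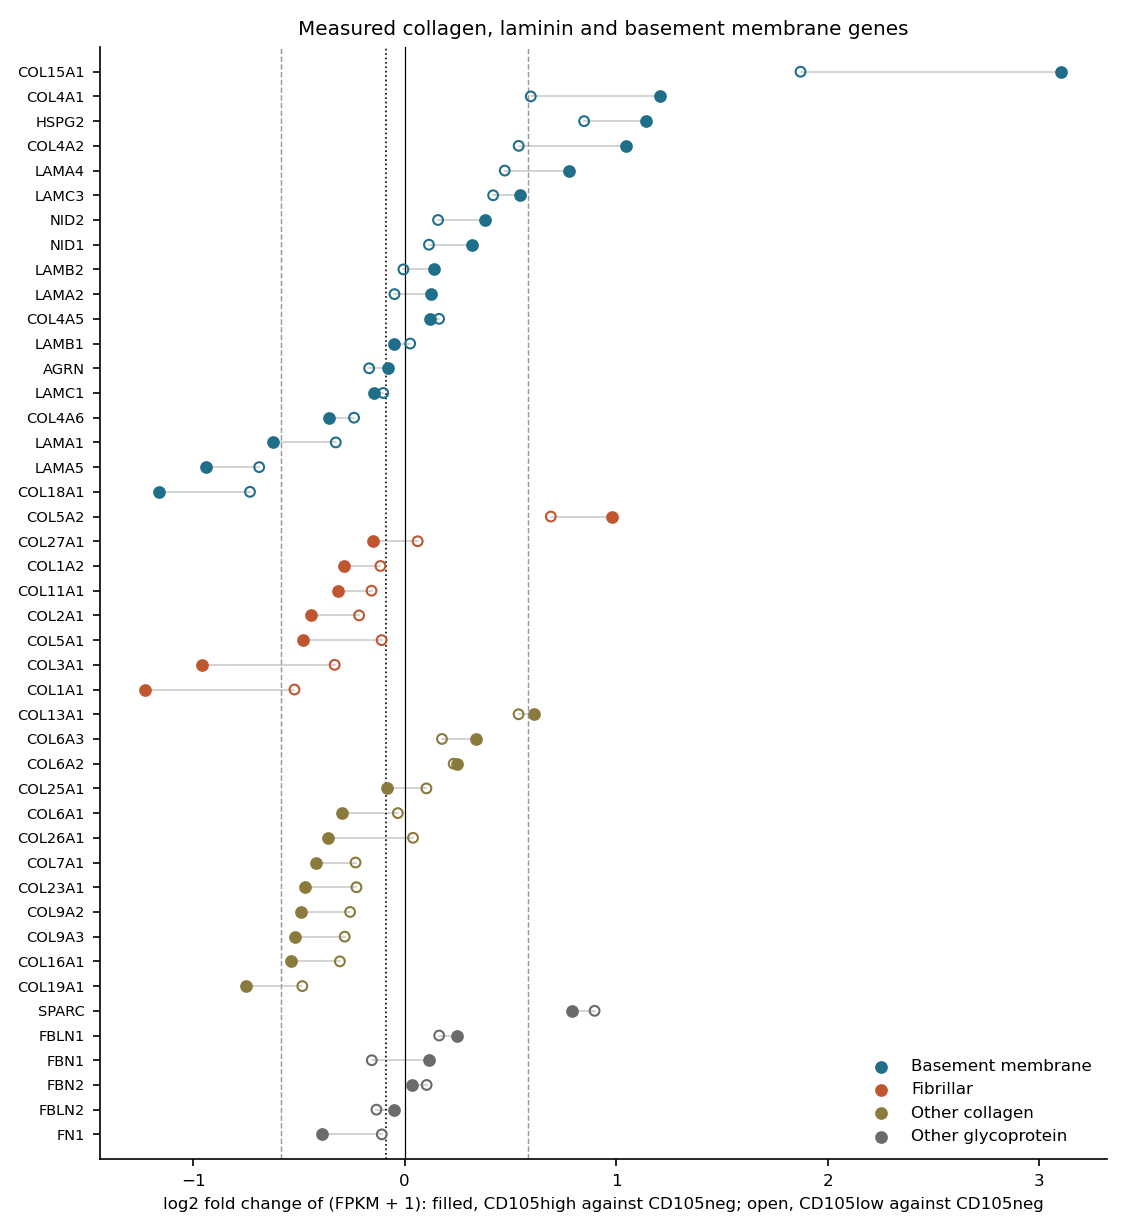
Log2 fold change of (FPKM + 1) of the 44 measured genes against CD105neg, for CD105high (filled) and CD105low (open), coloured by group and ordered within it, with 1 library per population. Dashed lines mark 1.5-fold and the dotted line the median measured gene of CD105high against CD105neg, -0.09; COL15A1 lies farthest to the right at 3.10 and COL1A1 farthest to the left at -1.23.

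CD105low lay between the other libraries for 32 of the 44 measured genes (72.7%), where it did for 54.0% of all measured genes. Of the 18 basement membrane genes, 8 were highest in CD105high and lowest in CD105neg with CD105low between, and 5 ran the opposite way. Of the 8 fibrillar genes, 1 ran upward with CD105 in this sense, COL5A2, and 6 ran downward. Over all measured genes, 17.6% ran upward and 36.4% downward. These orders all use the deposited values. LAMC1, among the 5 basement membrane genes that ran downward, lay at -0.04 for CD105high against CD105low as deposited and at 0.06 after centring. COL4A5 and LAMB1, which ran neither way, also changed sign in that pair, from -0.04 to 0.06 and from -0.08 to 0.03.

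In CD105low against CD105neg, 3 of 18 basement membrane genes were higher, COL15A1, HSPG2 and COL4A1, where 4.13% of all measured genes were. The log2 fold change was 1.87 for COL15A1, 0.85 for HSPG2 and 0.60 for COL4A1, and that of COL4A1 was just short of 1.5-fold after centring (0.58). COL18A1 (-0.73) and LAMA5 (-0.69) were lower, where 2.18% of all measured genes were. Among fibrillar collagens, COL5A2 was higher (0.69) and none was lower; COL1A1 lay at -0.52 and COL3A1 at -0.33. The median was 0.07 for basement membrane genes and -0.14 for fibrillar collagens, beside 0.02 over all measured genes. Both comparisons with CD105neg rest on its single library.

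In CD105high against CD105low, COL15A1 (1.23) and COL4A1 (0.61) were higher, where 1.18% of all measured genes were, and COL4A2 (0.51) was short of 1.5-fold as deposited and past it after centring (0.61). No basement membrane gene was lower. COL1A1 (-0.70) and COL3A1 (-0.63) were lower, where 2.19% of all measured genes were; after centring COL3A1 lay at -0.52, short of 1.5-fold. The median was 0.14 for basement membrane genes and -0.22 for fibrillar collagens, beside -0.10 over all measured genes. COL5A2 lay at 0.29 in this pair, HSPG2 at 0.29 and COL18A1 at -0.43.

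The 22 genes below 1 FPKM in every library included COL4A3, COL4A4, LAMA3, LAMB3 and LAMB4 of the basement membrane group, COL5A3, COL11A2 and COL24A1 of the fibrillar group, and COL6A5, COL6A6, COL8A1, COL8A2, COL9A1, COL10A1, COL12A1, COL14A1, COL17A1, COL20A1, COL21A1, COL22A1 and COL28A1. LAMA3 and LAMB3 encode laminin chains of skin and other stratified epithelia, and COL17A1 a hemidesmosome collagen; the highest value among these 3 was 0.25 FPKM, of LAMB3 in CD105neg. COL8A1 and COL8A2, collagens of vessel walls and the cornea, did not exceed 0.48 FPKM. COL24A1 came nearest to 1 FPKM, at 0.80 FPKM in CD105neg. No fold change is given for these genes.

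Of 27 measured genes that modify, fold or cross-link collagen, 3 were higher in CD105high than in CD105neg (11.1%, where 5.65% of all measured genes were) and 1 was lower (3.70%, where 6.88% were). SERPINH1, the collagen chaperone HSP47, stood at 129 FPKM (CD105neg), 157 FPKM (CD105low) and 225 FPKM (CD105high) (0.79). COLGALT1, which adds galactose to collagen hydroxylysine, stood at 27.2 FPKM (CD105neg), 36.7 FPKM (CD105low) and 43.2 FPKM (CD105high) (0.65). TLL1, a tolloid-like protease of procollagen, stood at 0.22 FPKM (CD105neg), 0.66 FPKM (CD105low) and 1.595 FPKM (CD105high) (1.09), and LOXL3, a lysyl oxidase-like gene, at 21.9 FPKM (CD105neg), 16.8 FPKM (CD105low) and 13.8 FPKM (CD105high) (-0.63). The prolyl hydroxylase subunit genes P4HA1 and P4HB, named after their values were seen, had log2 fold changes of 0.00090 and 0.05. PXDN, the peroxidase that cross-links collagen IV, also named after its values were seen, stood at 45.2 FPKM (CD105neg), 58.3 FPKM (CD105low) and 63.1 FPKM (CD105high) (0.47), short of 1.5-fold.

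In a list of 22 other measured basement membrane and matricellular genes, 3 were higher in CD105high than in CD105neg (13.6%, where 5.65% of all measured genes were) and 2 were lower (9.09%, where 6.88% were). MMRN2, an endothelial matrix protein, stood at 43.5 FPKM (CD105neg), 87.02 FPKM (CD105low) and 106 FPKM (CD105high) (1.26) and ECM1 at 6.25 FPKM (CD105neg), 10.3 FPKM (CD105low) and 14.9 FPKM (CD105high) (1.13), and the third, TINAGL1, named after its values were seen, at 1.25 FPKM (CD105neg), 2.17 FPKM (CD105low) and 2.55 FPKM (CD105high) (0.66). FREM1, of a complex that anchors embryonic epithelia to their basement membrane, stood at 5.796 FPKM (CD105neg), 4.11 FPKM (CD105low) and 2.11 FPKM (CD105high) (-1.13), and EMILIN2 at 9.57 FPKM (CD105neg), 7.53 FPKM (CD105low) and 5.58 FPKM (CD105high) (-0.68). Among 10 measured genes of fibril-associated proteoglycans and elastic fibres, 1 was higher (10%, where 5.65% of all measured genes were) and 2 were lower (20%, where 6.88% were). VCAN, which encodes the proteoglycan versican, was higher, at 23.9 FPKM in the CD105high library and 11.9 FPKM in the CD105neg library. ELN, which encodes elastin, and LTBP3, which binds latent TGF-beta, were lower: ELN stood at 0.51 FPKM in the CD105high library and 1.55 FPKM in the CD105neg library, and LTBP3 at 1.02 FPKM in the CD105high library and 2.38 FPKM in the CD105neg library. LTBP4 stood at 7.53 FPKM in the CD105high library and 10.1 FPKM in the CD105neg library.

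Markers of cell types that the sort could hold also differed between the libraries. All 8 endothelial markers were higher in CD105high than in CD105neg, where 5.65% of all measured genes were. Their median log2 fold change was 0.76, and their summed level was 712 FPKM (CD105neg), 1067 FPKM (CD105low) and 1208 FPKM (CD105high). PECAM1, the gene of CD31, by which all 3 populations were sorted, is among the 8. The marker lists were chosen with earlier results of these data known. Of the 14 mural, smooth muscle or fibroblast markers, 10 were measured. PDGFRB, CSPG4, DES and TAGLN were lower in CD105high (40% of the 10, where 6.88% of all measured genes were). THY1 was higher (10%, where 5.65% were). The summed level was 314, 348 and 304 FPKM in CD105neg, CD105low and CD105high. PDGFRB, a receptor of mural cells, stood at 9.05 FPKM (CD105neg), 4.99 FPKM (CD105low) and 2.74 FPKM (CD105high), and TAGLN, a smooth muscle actin-binding protein gene, at 77.5 FPKM (CD105neg), 66.1 FPKM (CD105low) and 41.9 FPKM (CD105high), whereas THY1 stood at 33.6 FPKM (CD105neg), 53.9 FPKM (CD105low) and 57.3 FPKM (CD105high). DCN and MYH11, which define fibroblasts and mature smooth muscle, were at or below 0.026 FPKM, and LUM and POSTN at or below 0.77 FPKM.

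Of the 3 pluripotent or epithelial markers with a row, CDH1 was lower in CD105high, at 0.82 FPKM in the CD105high library and 1.798 FPKM in the CD105neg library; EPCAM stood at 3.44 FPKM in the CD105high library and 5.46 FPKM in the CD105neg library, and DPPA4 at 30.5 FPKM in the CD105high library and 30.3 FPKM in the CD105neg library. The summed level of the 3 was 37.5, 37.8 and 34.8 FPKM in CD105neg, CD105low and CD105high. All 6 measured blood markers were lower in CD105high than in CD105neg, where 6.88% of all measured genes were lower and 5.65% higher. Their median was -1.72, and the summed level over the 8 of the list was 41.6, 15.3 and 7.47 FPKM in CD105neg, CD105low and CD105high. Of the 5 endoderm markers 3 were measured, with APOB and CER1 higher and APOA1 lower in CD105high, and their sum did not exceed 8.47 FPKM in any library. The part of these markers' cell types in the collagen and laminin values was not tested.

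**Figure D5:**
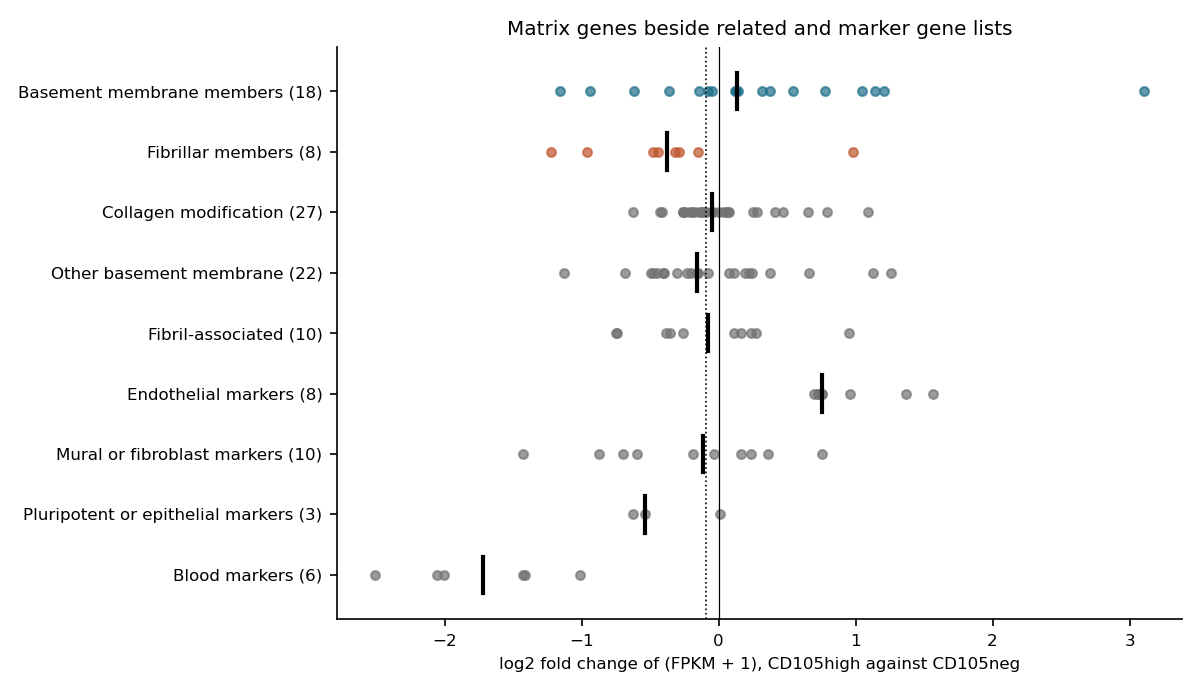
Log2 fold change of (FPKM + 1) for CD105high against CD105neg, 1 point per measured gene, for the basement membrane and fibrillar groups and for lists of related and marker genes, with a bar at each median and the number of genes in brackets. The dotted line is the median of all measured genes, -0.09; the basement membrane median lies at 0.13, the fibrillar median at -0.38 and the endothelial marker median at 0.76.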

How the data were processed

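The authors deposited 1 value per gene and library, scaled for length and depth as far as the values show and treated here as FPKM; the headers name no unit, and TPM would differ by 1 factor per library. Of the steps before deposit, the sources used here give a TruSeq RNA kit that does not mark strand, used on 2 ug of RNA, per the labels' protocols, and BWA, Bowtie, RSEM and hg19, without versions or roles, per the submitters' processing notes. The CD105neg value column is headed as CD105 positive; the sample title set its group. By how the lowest values are spaced, and if they are FPKM, CD105low was sequenced 1.12 times and CD105high 1.04 times as deeply as CD105neg. Read numbers are unknown, so no counting interval is given.

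Log2 fold changes used a pseudocount of 1 over all 18345 genes (Python 3.11.15, pandas 2.3.3), with a floor of 1 FPKM and a 1.5-fold rule. The code was run on simulated data with larger planted changes and counting noise alone. That run does not test how well changes near 1.5-fold or near the floor are found, nor variation between libraries. Centring means subtracting the median of genes at or above 10 FPKM. Named genes were all measured members, the sort genes, cell type markers and the 4 largest changes of each related list. Members and lists were chosen with earlier results of these data known. Genes on the other strand came from GENCODE release 29, which covers all 66 members, and promoters from RefSeq GRCh38.p14; no coordinates were carried between builds. Alternatives were other pseudocounts, floors, folds, scalings and group definitions. A low member is not reported here.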

Additional observations from a re-analysis of the deposited data

How the results depend on the processing

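No paired analysis was possible because each population has 1 library. The basement membrane median for CD105low against CD105neg (0.07) was -0.0020 with no floor; no other median and no difference of medians changed sign under the alternatives tried, and 1.5-fold calls on single genes did not reverse. For CD105high against CD105neg, the difference of the basement membrane and fibrillar medians (0.51) was 0.38 with a pseudocount of 5, 0.36 with no floor, 0.67 with means and 0.96 with collagen IV genes alone. The basement membrane median (0.13) was 0.27 with libraries scaled to a common sum, 0.31 as a mean and 0.58 for collagen IV alone, and the fibrillar median was -0.27 with a pseudocount of 5. At 2-fold, 1 basement membrane gene was lower, no fibrillar gene was higher and 1 was lower. Without the 4 members of which at least 10% of the exonic bases lie opposite another gene (COL18A1, HSPG2, LAMA1 and NID2), an alternative chosen after seeing the data, 1 basement membrane gene was lower.

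For CD105low against CD105neg, the difference (0.21) was 0.49 and the basement membrane median 0.35 with collagen IV alone. At 2-fold, 1 basement membrane gene was higher, none was lower, and no fibrillar gene was higher; with a pseudocount of 5, or without those 4 members, 1 basement membrane gene was lower. For CD105high against CD105low, the difference (0.36) was 0.25 with a pseudocount of 5 and 0.22 with no floor. Centring gave medians of 0.24 and -0.12 for the basement membrane and fibrillar groups, and common sums 0.24 for the first. Fibrillar genes that were lower numbered 1 after centring or common sums, and 0 with a pseudocount of 5 or at 2-fold, where 1 basement membrane gene was higher. Over the 44 measured members, the 3 pairs and the 4 alternative pseudocounts and scalings (528 values), 13 calls of 1.5-fold were lost and 17 gained.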

Other observations

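The position of the genes was not used to choose them. In GENCODE release 29, 9 pairs of the 66 are next to each other among protein-coding genes, and both genes of 4 pairs were measured. The head-to-head pair COL4A1 and COL4A2 on chromosome 13 had log2 fold changes of 1.21 and 1.05 for CD105high against CD105neg, and the head-to-head pair COL4A5 and COL4A6 on chromosome X of 0.12 and -0.36. COL6A1 and COL6A2, on the same strand of chromosome 21, lay at -0.29 and 0.25. The tail-to-tail pair COL3A1 and COL5A2 on chromosome 2 lay farthest apart, at -0.96 and 0.98: the ratio of COL5A2 to COL3A1 was 5.79 in CD105neg, 12.03 in CD105low and 23.9 in CD105high.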
